A study of Mus musculus with 10 samples.

Results

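Glycolysis genes and genes of the hypoxia response were examined in mouse lung squamous cell carcinoma (SCC) and normal lung. The set holds 34 of the 24421 genes in the count table, found by gene symbol, and all 34 had a row. Of these, 21 code for glucose transporters, glycolytic and lactate enzymes or lactate transporters, and 13 are sensors or known targets of the hypoxia response. The 5 normal libraries came from lung of wt NIH Swiss mice given no treatment. The 5 SCC libraries came from lung tumours of wt NIH Swiss mice given NTCU, a nitrosourea carcinogen that induces squamous tumours in mouse lung. In both groups tissue regions were cut by laser from fixed, paraffin-embedded sections, RNA was isolated with the RNeasy FFPE kit, and stranded total RNA libraries were made from picogram inputs. The labels give no age and do not tie libraries to animals, so a p-value here reflects how far these libraries vary among themselves, possibly for technical reasons, and is too small if regions share an animal.

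Glycolysis turns glucose into pyruvate and yields ATP without oxygen, and lactate dehydrogenase then turns pyruvate into lactate, which leaves the cell through monocarboxylate transporters. Oxygen-dependent prolyl hydroxylases of the Egln family mark the alpha subunits of hypoxia-inducible factor for destruction, and when oxygen is low the subunits accumulate, pair with Arnt and raise transcription of glycolytic and pH-regulating genes. Squamous tumours of the lung are known for avid glucose uptake and for abundant glucose transporter protein, and tumour cells far from vessels often carry carbonic anhydrases at their surface.

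The core of the DNA element bound by hypoxia-inducible factor is ACGTG or GCGTG. Here the word core is used for the form ACGTG, which reads CACGT on the other strand. RefSeq gene starts (GRCm38.p6) were found for 32 members, all but Slc2a3 and Ndrg1, and the 250 bases before each start were searched on both strands. The core was present before a start of 10 of 20 glycolytic members and 9 of 12 hypoxia members, against 18.5% of 27025 genes overall. A gene with more starts has more chances of a match, and the glycolytic members had 31 windows. Counted by window, the core was in 38.7% of these, in 69.2% of 13 hypoxia windows and in 16.6% of 32851 windows overall. The core overlaps the E-box CACGTG, which other factors bind, so a match is only a run of letters. The form GCGTG, or CACGC on the other strand, was before a start of 12 of 20 glycolytic members. It was before a start of 8 of 12 hypoxia members and of 30.9% of genes overall. Windows of 6 of the called members are shown here 5′ to 3′ on the strand of the gene, with each core in capitals. For Ldha the window is that of the first of 2 starts. The order runs from lactate handling (Ldha, Ldhb, Slc16a3) through Pgk1 to the hypoxia members Egln3 and Car12.
Ldha (chr7:46845554-46845803, plus strand): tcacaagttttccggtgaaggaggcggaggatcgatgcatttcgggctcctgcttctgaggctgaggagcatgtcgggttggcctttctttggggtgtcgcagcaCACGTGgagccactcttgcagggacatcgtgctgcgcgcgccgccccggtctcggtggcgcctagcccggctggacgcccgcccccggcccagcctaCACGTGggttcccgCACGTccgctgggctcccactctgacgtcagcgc
Ldhb (chr6:142507958-142508207, minus strand): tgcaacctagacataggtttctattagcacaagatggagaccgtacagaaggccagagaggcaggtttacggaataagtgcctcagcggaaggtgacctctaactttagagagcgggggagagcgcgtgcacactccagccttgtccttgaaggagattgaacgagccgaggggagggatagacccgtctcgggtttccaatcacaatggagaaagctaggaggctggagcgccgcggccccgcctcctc
Slc16a3 (chr11:120948817-120949066, plus strand): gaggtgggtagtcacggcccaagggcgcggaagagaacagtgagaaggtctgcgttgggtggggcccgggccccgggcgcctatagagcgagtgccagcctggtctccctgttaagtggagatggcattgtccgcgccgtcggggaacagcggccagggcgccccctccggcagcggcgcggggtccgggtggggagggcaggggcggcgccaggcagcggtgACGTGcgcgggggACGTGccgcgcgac
Pgk1 (chrX:106186850-106187099, plus strand): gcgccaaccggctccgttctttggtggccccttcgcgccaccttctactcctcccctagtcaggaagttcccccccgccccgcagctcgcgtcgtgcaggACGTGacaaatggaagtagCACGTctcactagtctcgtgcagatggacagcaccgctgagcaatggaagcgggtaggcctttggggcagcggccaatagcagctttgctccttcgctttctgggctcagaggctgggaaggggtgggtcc
Egln3 (chr12:54203875-54204124, minus strand): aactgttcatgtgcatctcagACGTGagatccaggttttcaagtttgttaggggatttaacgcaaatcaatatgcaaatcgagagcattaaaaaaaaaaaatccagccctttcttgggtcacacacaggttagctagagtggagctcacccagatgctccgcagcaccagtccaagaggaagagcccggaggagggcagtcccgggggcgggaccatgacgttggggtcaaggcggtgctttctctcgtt
Car12 (chr9:66713436-66713685, plus strand): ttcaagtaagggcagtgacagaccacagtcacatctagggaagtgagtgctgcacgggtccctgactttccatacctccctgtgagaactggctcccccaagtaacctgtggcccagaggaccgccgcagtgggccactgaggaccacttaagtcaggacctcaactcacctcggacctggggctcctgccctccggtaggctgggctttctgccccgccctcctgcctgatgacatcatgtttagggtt
The Ldha window held 3 stretches in capitals, and 2 of these were E-boxes, each of which matches on both strands. Counted by strand they gave 5 matches, 2 of them ACGTG and 3 CACGT, while the window before the second Ldha start held none. Slc16a3 held 2 matches, Pgk1 held 1 on each strand, Egln3 held 1, and the windows of Ldhb and Car12 held neither ACGTG nor CACGT. The form GCGTG, not in capitals, was present 1 time in the Ldhb window. Its reverse CACGC was present 1 time before the second Ldha start, and the Car12 window held 0 of both. Among members with a window, the core was present for 8 of 13 called higher in SCC in the comparison described next, for 9 of 14 that were tested and not called, and for 2 of 4 that were not tested.

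Total counts ran from 1004105 to 6817106 per library. Levels are given as CPM (counts scaled to the size of the TMM-adjusted library), and differences as log2 fold changes of SCC over normal with their standard error (SE). A gene was called at an adjusted p under 0.05 in edgeR's quasi-likelihood test with Benjamini-Hochberg adjustment over 13203 tested genes, and a gene that missed this threshold is not thereby shown to be equal in both groups. Squamous markers (Trp63, keratins, Sprr and others, 10 genes) summed to 1.09 to 15.1 CPM in normal libraries and 863 to 6246 CPM in SCC libraries, with SCC 5 the highest, and all 10 were called higher. All 8 alveolar type 2 and 6 type 1 markers and 7 of 8 endothelial markers were called lower, and 6 of 8 proliferation markers higher, with sums of 63.3 to 105 CPM in normal and 260.1 to 861 CPM in SCC. In captured tissue, fewer cells of a type and less RNA per cell cannot be told apart. Counts on 1452 odour and pheromone receptor genes were 3.27, 0.594, 3.31, 3.53 and 0.42 CPM per kb of coding length in SCC 1 to SCC 5, and 0.0417 to 0.207 in normal libraries. A length-proportional background at those rates would make up 18.6% of SCC 1, 3.7% of SCC 2, 21.3% of SCC 3, 22% of SCC 4 and 2.55% of SCC 5, so results are also given from SCC 2 and SCC 5 alone, and after subtracting that background.

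Glycolytic genes were called higher in SCC more often than lower. Of 21 members, 20 passed the filter on low counts; 10 were called higher and 1 lower, against 12.5% of all tested genes called higher and 8.68% called lower. The called genes lie at several steps from glucose entry to lactate export, with none called at the Gpi1, aldolase and Pgam1 steps. Slc2a1, Hk2, Pfkl, Tpi1, Gapdh, Pgk1, Eno2, Pkm, Ldha and Slc16a3 were higher and Ldhb was lower. Of these, Slc2a1, Tpi1, Pgk1, Pkm, Ldha and Slc16a3 were not called without SCC 5. The median log2 fold change of the 20 was 1.4, and that of all tested genes 0.07. In 3 members (Hk2, Gapdh and Eno2) every SCC library lay above every normal library, as in 8.04% of tested genes, and in Ldhb every SCC library lay below, as in 6.93%. Eno2 had only 47 counts over all normal libraries and passed the filter mainly through its SCC libraries, which favours this pattern. With only SCC 2 and SCC 5 on the tumour side 11 of 21 were called higher and 0 lower (4.14% and 5.16% of tested genes; Ldhb alone was lower at an unadjusted p under 0.05, and DESeq2 on all libraries called 1 lower), and after subtraction 8 of 19 were higher and 1 lower (8.19% and 6.85%). Without SCC 5 the count of higher calls fell to 4 of 20 (14.5% of tested genes), with 1 lower (10.9%), and the median log2 fold change was 0.66.

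**Figure D1:**
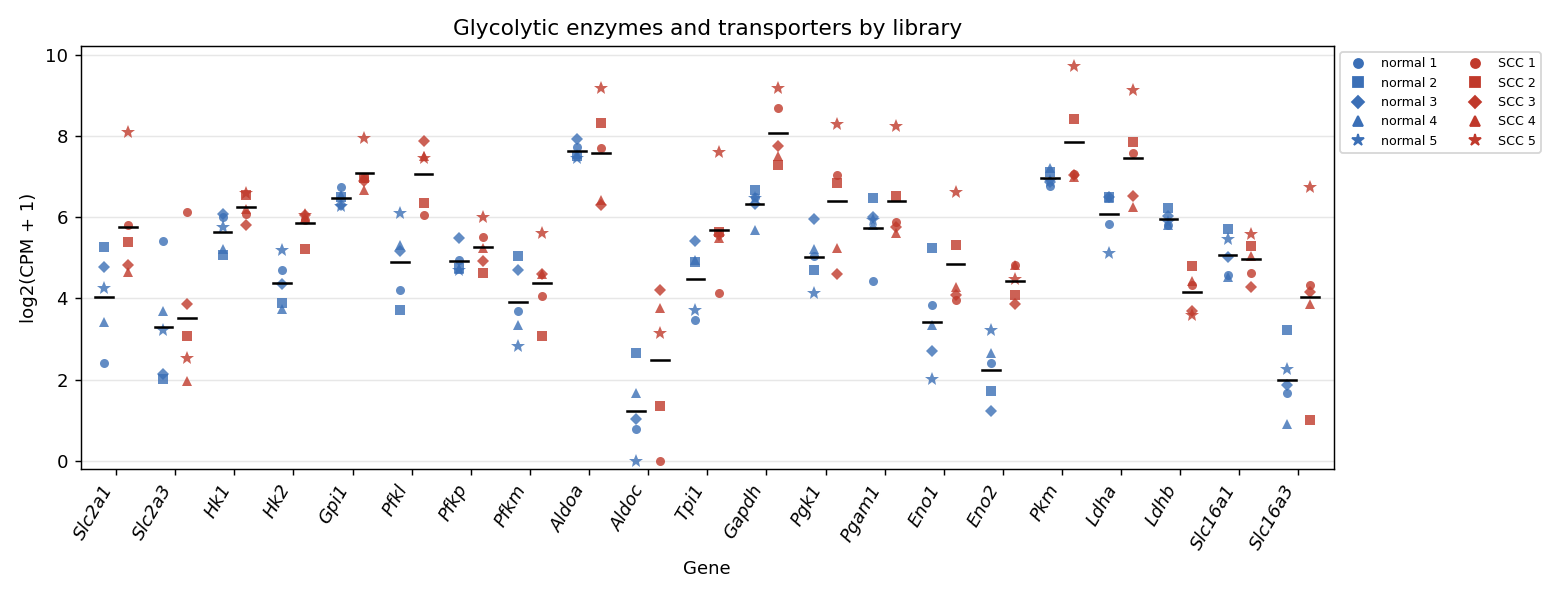
Levels of the glycolytic members in each library as log2 of CPM plus 1 (vertical axis) by gene (horizontal axis), with normal libraries in blue, SCC libraries in red, 1 symbol per library and a black bar at the group mean. For Gapdh the SCC points correspond to 155 to 581 CPM, above all normal points, and for Ldhb to 11 to 26.7 CPM, below them.

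Slc2a1 (chromosome 4, 119108711 to 119137983, GRCm38) codes for the widely expressed glucose transporter that brings glucose into epithelial and red blood cells. It measured 4.35, 37.3, 26.3, 9.64 and 18.2 CPM in normal 1 to normal 5 and 54.9, 41, 27.3, 24.4 and 272 CPM in SCC 1 to SCC 5. SCC 5 was far above all other libraries, SCC 1 and SCC 2 lay just above the normal range, and SCC 3 and SCC 4 lay inside it. Slc2a1 was called higher, with a log2 fold change of 2.15 (SE 0.62, edgeR adjusted p = 0.0136). Without SCC 5 the log2 fold change was 0.92 and the call was lost (edgeR adjusted p = 0.24). Slc2a3, the high-affinity glucose transporter of neurons and white blood cells, ran from 3.05 to 41.7 CPM in normal and 2.92 to 69.5 CPM in SCC libraries and was not called (log2 fold change 0.49, edgeR adjusted p = 0.734). Background at the receptor rate would account for 44.6% of its SCC counts.

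Hexokinases trap glucose in the cell by phosphorylation, and Hk2 (chromosome 6, 82725025 to 82774454) is the form found in muscle and in many tumours. Hk2 measured 25, 13.7, 19.5, 12.3 and 35.6 CPM in normal 1 to normal 5 and 60.4, 36.4, 66.1, 62.3 and 65.8 CPM in SCC 1 to SCC 5. The groups did not overlap, and SCC 2 was the lowest SCC library, close to the highest normal library. Hk2 was called higher (log2 fold change 1.46, SE 0.44, edgeR adjusted p = 0.0171). The call depended on normal 1, normal 2, normal 4, SCC 3 and SCC 4, each of which ended it when left out, with log2 fold changes of 1.12 to 1.37 and edgeR adjusted p of 0.0514 to 0.0923, and was also lost on SCC 2 and SCC 5 alone (1.24, adjusted p = 0.218) and with no filter (1.05, adjusted p = 0.0953). Hk1, the constitutive form, ran from 32.8 to 67.3 CPM in normal and 55.2 to 96.5 CPM in SCC and was not called (log2 fold change 0.60, edgeR adjusted p = 0.269). Per kb of transcript, the mean level of Hk1 was 11.8 CPM per kb in normal and 18 in SCC, and that of Hk2 3.85 and 10.6, so Hk1 stayed the more abundant of the pair.

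Phosphofructokinase carries out the committed step of glycolysis, and its liver-type subunit Pfkl (chromosome 10, 77986947 to 78010083) was among the members whose call held throughout. Pfkl measured 17.4, 12.2, 35.1, 39 and 68.1 CPM in normal 1 to normal 5 and 65.9, 80.9, 236, 182 and 177 CPM in SCC 1 to SCC 5. SCC 3, SCC 4 and SCC 5 lay well above all normal libraries, and SCC 1 fell just below normal 5. Its log2 fold change was 2.11 (SE 0.46, edgeR adjusted p = 0.00141), and it was called higher under all 17 alternatives, leaving out each library included. The platelet-type Pfkp, at 25 to 44 CPM in normal and 23.9 to 63.6 CPM in SCC, and the muscle-type Pfkm, at 6.05 to 32 and 7.38 to 47.8 CPM, were not called (log2 fold changes 0.39 and 0.48, edgeR adjusted p = 0.584 and 0.645). In normal lung the mean levels per kb of Pfkl, Pfkp and Pfkm were 9.21, 7.26 and 5.86 CPM per kb, and in SCC they were 39.8, 9.59 and 8.17, and Pfkl was the highest of the 3 in every SCC library. In normal lung the order differed between libraries, and without normal 5 the means were 6.95, 7.57 and 6.8 CPM per kb, with Pfkp the highest. Exons of Pfkp and Pfkm overlap those of Pitrm1 and Senp1 on the other strand, and how strand was treated in the counting was not given in the sources used here, so their counts are uncertain. Gpi1, the isomerase between hexokinase and phosphofructokinase, ran from 77.2 to 106 CPM in normal and 101 to 247 CPM in SCC. It was not called (log2 fold change 0.69, edgeR adjusted p = 0.176) except after background subtraction (1.03, adjusted p = 0.0315).

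Aldolase splits the sugar into triose phosphates. Aldoa, the muscle and housekeeping form, measured 175 to 243 CPM in normal libraries and 208, 317, 78.6, 85.7 and 585 CPM in SCC 1 to SCC 5. SCC 5 and SCC 2 lay above the normal range and SCC 3 and SCC 4 below it, and Aldoa was not called (log2 fold change 0.35, edgeR adjusted p = 0.643). With SCC 2 and SCC 5 alone it was called higher (1.14, adjusted p = 0.0234), and without SCC 5 its log2 fold change was -0.24. Aldoc, the brain form, did not pass the filter; it ran from 0 to 5.33 CPM in normal and 0 to 17.5 CPM in SCC, and background at the receptor rate would make up 65.5% of its SCC counts. Tpi1, which interconverts the triose phosphates, measured 10.2, 29, 41.5, 29.8 and 12.1 CPM in normal 1 to normal 5 and 16.5, 48.9, 46.4, 43.8 and 196 CPM in SCC 1 to SCC 5. SCC 5 stood far above the rest, SCC 2 to SCC 4 lay just above the normal range, and SCC 1 lay within it. Tpi1 was called higher near the threshold (log2 fold change 1.51, SE 0.54, edgeR adjusted p = 0.0472). Leaving out normal 1, normal 2, normal 4, normal 5, SCC 3, SCC 4 or SCC 5 ended the call, with log2 fold changes of 0.63 to 1.57 and edgeR adjusted p of 0.0512 to 0.393, and so did subtraction (1.75, adjusted p = 0.057). Exons of Aldoa and Tpi1 overlap Fam57b and Spsb2 on the other strand.

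Gapdh (chromosome 6, 125161715 to 125166467), the dehydrogenase that yields the NADH of glycolysis and is often used as a reference gene, measured 89.6, 101, 78.8, 50.9 and 88.5 CPM in normal 1 to normal 5. In SCC 1 to SCC 5 it measured 411, 155, 216, 181 and 581 CPM. Every SCC library was above every normal library, SCC 5 and SCC 1 by the widest margin. Gapdh was called higher with a log2 fold change of 1.92 (SE 0.41, edgeR adjusted p = 0.00121), and it was called higher under all 17 alternatives. Pgk1 (chromosome X, 106187100 to 106203699), which makes the first ATP of the pathway, measured 31.9, 25.1, 61.1, 35.9 and 16.6 CPM in normal 1 to normal 5 and 129.9, 115, 23.5, 37 and 312 CPM in SCC 1 to SCC 5. SCC 1, SCC 2 and SCC 5 lay above all normal libraries, and SCC 3 and SCC 4 were inside the normal range. It was called higher (log2 fold change 1.84, SE 0.52, edgeR adjusted p = 0.0124). The call was lost without normal 2, normal 5 or SCC 5, with log2 fold changes of 1.11 to 1.59 and edgeR adjusted p of 0.0517 to 0.0925.

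Pgam1, the mutase after Pgk1, measured 20.7 to 87.6 CPM in normal libraries and 58.6, 91.1, 53, 47.7 and 301 CPM in SCC 1 to SCC 5, and was not called (log2 fold change 0.96, edgeR adjusted p = 0.167). With SCC 2 and SCC 5 alone it was called higher (1.74, adjusted p = 0.0183). Enolase follows, as the ubiquitous Eno1 and the neuronal form Eno2. Eno1 ran from 3.03 to 36.6 CPM in normal and 14.6 to 97.3 CPM in SCC and was not called (log2 fold change 1.49, edgeR adjusted p = 0.112), though it was without normal 2 (2.10, adjusted p = 0.0242) and from SCC 2 and SCC 5 alone (2.32, adjusted p = 0.0426). Eno1b is a near-identical copy of Eno1 with its own row, at 0 to 3.42 CPM in normal and 0.974 to 42.5 CPM in SCC, so reads may be split between the pair. Eno2 measured 4.35, 2.29, 1.34, 5.26 and 8.32 CPM in normal 1 to normal 5 and 27.4, 16, 13.7, 27.3 and 21.5 CPM in SCC 1 to SCC 5. All SCC libraries lay above all normal libraries at low levels, and background at the receptor rate would make up 23.3% of the SCC counts. Eno2 was called higher (log2 fold change 2.31, SE 0.72, edgeR adjusted p = 0.0218). Leaving out normal 1, normal 2, normal 3, SCC 1 or SCC 4 ended the call (log2 fold changes 1.96 to 2.18, edgeR adjusted p 0.0542 to 0.0758) as did no filter, SCC 2 and SCC 5 alone and subtraction (adjusted p 0.0562 to 0.183).

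Pyruvate kinase closes glycolysis, and its gene Pkm gives a muscle form and the form of proliferating cells by splicing, which gene counts do not separate. Pkm (chromosome 9, 59656368 to 59679375) measured 109, 138, 116, 146 and 117 CPM in normal 1 to normal 5 and 133, 340.0, 131, 126 and 853 CPM in SCC 1 to SCC 5. Only SCC 5 and SCC 2 stood above the normal range, and the other SCC libraries lay within it. The call was higher (log2 fold change 1.34, SE 0.47, edgeR adjusted p = 0.0415). It was lost without any of the 5 normal libraries and without SCC 2 or SCC 5, with log2 fold changes of 0.52 to 1.31 and edgeR adjusted p of 0.0626 to 0.314, and with no filter (1.07, adjusted p = 0.0595). Gapdh, Pgk1, Pgam1, Tpi1, Aldoa, Pkm and Ldha have processed pseudogenes of nearly the same sequence, and how multi-mapping reads were treated was likewise not given, so their counts are uncertain to that extent.

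The lactate dehydrogenase subunits moved in opposite directions. Ldha (chromosome 7, 46841475 to 46855627), the muscle-type subunit that favours lactate formation, measured 55.9, 89.9, 89, 88.1 and 34 CPM in normal 1 to normal 5 and 190.3, 229, 91.7, 75 and 565 CPM in SCC 1 to SCC 5. SCC 1, SCC 2 and SCC 5 were well above the normal libraries, SCC 3 was just above normal 2, and SCC 4 was inside the normal range. Ldha was called higher (log2 fold change 1.69, SE 0.47, edgeR adjusted p = 0.0104), and the call was lost without normal 1, normal 5 or SCC 5 (log2 fold changes 1.01 to 1.5, edgeR adjusted p 0.0511 to 0.0699). Ldhb (chromosome 6, 142490249 to 142507957), the heart-type subunit, measured 55.1, 74.7, 64.6, 55.2 and 58.3 CPM in normal 1 to normal 5 and 19.2, 26.7, 12, 20.5 and 11 CPM in SCC 1 to SCC 5. Every SCC library was below every normal library, with SCC 5 and SCC 3 the lowest. Ldhb was called lower (log2 fold change -1.78, SE 0.43, edgeR adjusted p = 0.0033). With SCC 2 and SCC 5 alone the value was -1.72 and narrowly missed the adjusted threshold (edgeR adjusted p = 0.0528). Striated muscle markers summed to 1269 to 2332 CPM in normal and 196 to 909 CPM in SCC, and 5 of 7 tested were called lower. The part of these and of the other cell type markers in the Ldhb result was not tested. Per kb of transcript, mean Ldha and Ldhb levels were 39.3 and 47.2 CPM per kb in normal lung, and 127 and 13.7 in SCC.

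Lactate leaves the cell through Slc16a3, the exporter of glycolytic tissue, and moves both ways through Slc16a1. Slc16a3 (chromosome 11, 120948480 to 120960868) measured 2.18, 8.38, 2.68, 0.877 and 3.78 CPM in normal 1 to normal 5 and 19.2, 1.02, 16.9, 13.6 and 106 CPM in SCC 1 to SCC 5. SCC 5 was the highest by far, SCC 1, SCC 3 and SCC 4 were above the normal range, and SCC 2 was near its bottom. Slc16a3 was called higher (log2 fold change 3.19, SE 0.88, edgeR adjusted p = 0.00993), but not without SCC 5 (1.81, adjusted p = 0.162). After background subtraction it no longer passed the filter, and background would make up 22.6% of its SCC counts. That share is pooled over 311 SCC counts, of which SCC 5 held 241. SCC 1, SCC 3 and SCC 4 held 21, 31 and 14 counts. Their receptor rates were 3.27, 3.31 and 3.53 CPM per kb, and the transcript is 4.335 kb long. At those rates background would make up most or all of the Slc16a3 counts in SCC 1, SCC 3 and SCC 4. Slc16a1 ran from 21.9 to 51.8 CPM in normal and 18.6 to 46.9 CPM in SCC and was not called (log2 fold change -0.09, edgeR adjusted p = 0.917).

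**Figure D2:**
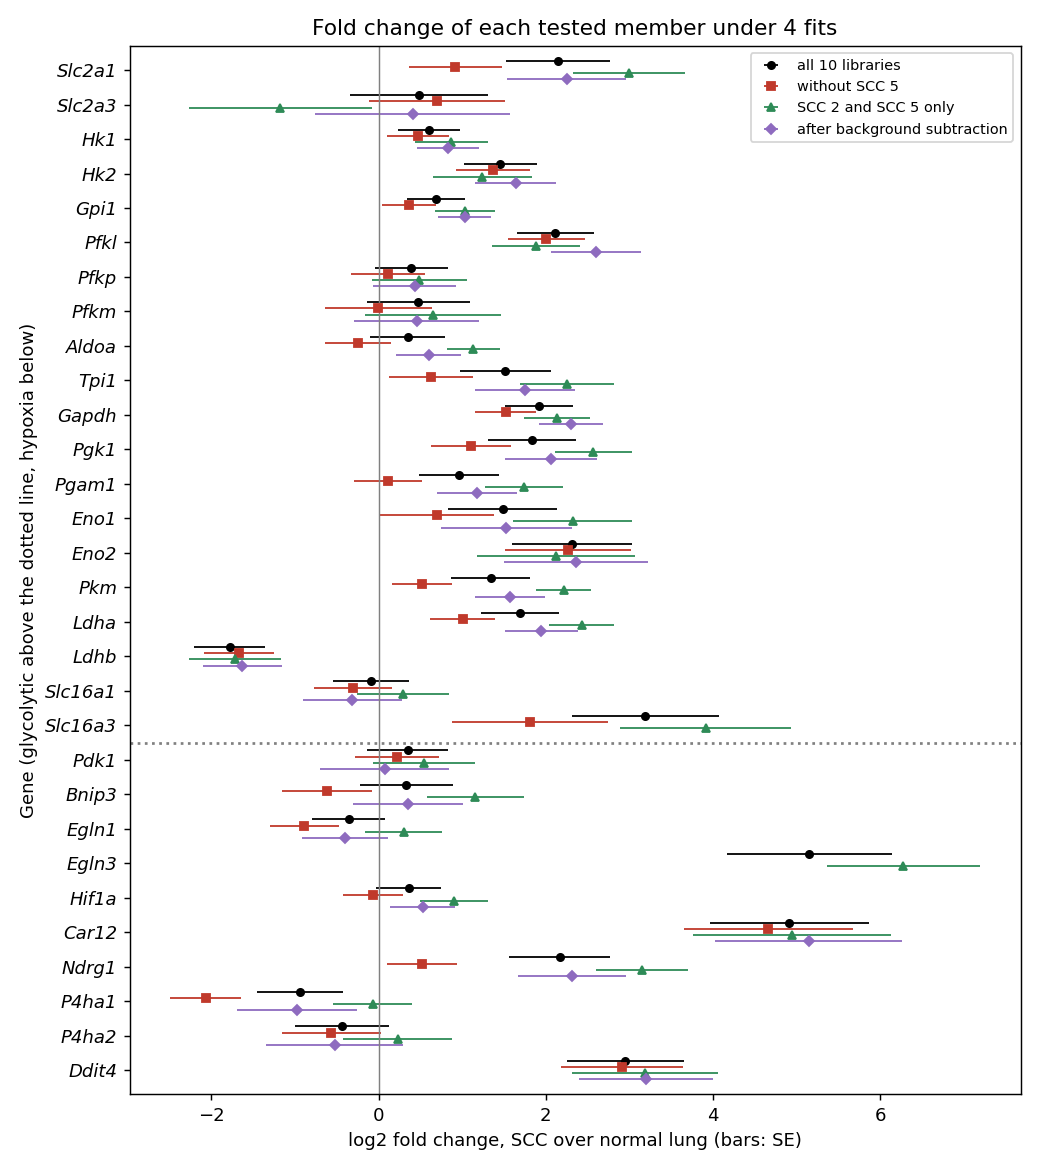
Log2 fold change of SCC over normal for each tested member, with bars of 1 SE, from all 10 libraries (black), without SCC 5 (red), from SCC 2 and SCC 5 alone (green) and after background subtraction (purple). In black, Egln3 (5.15) and Car12 (4.91) lie farthest to the right and Ldhb (-1.78) farthest to the left, and for Slc2a1, Ndrg1, Pkm and P4ha1 the red points lie well to the left of the black ones.

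Among the hypoxia members, a hydroxylase, a carbonic anhydrase and a pair of stress genes were called higher, and transcripts of Hif1a, Egln1 and the collagen hydroxylases were not called. Of 13 members, 10 passed the filter, and 4 of these (Egln3, Car12, Ddit4 and Ndrg1) were called higher and 0 lower, where 12.5% and 8.68% of tested genes were called. No tested hypoxia member was lower at an unadjusted p under 0.05 in edgeR (0 of 10). DESeq2 called 3 of 8 higher and 0 lower. It gave no adjusted p to Ndrg1 or P4ha1, so its 0 does not cover P4ha1. The tested members that missed a call numbered 6, and the list's median log2 fold change was 0.35, against 0.07 over all tested genes. Egln3, Car12 and Ddit4 each had every SCC library above every normal library (8.04% of tested genes). Their counts over all normal libraries were only 14, 8 and 65, so they passed the filter mainly through their SCC libraries. That favours this pattern among tested genes, so it is not separate support for a difference. With SCC 2 and SCC 5 alone 4 of 12 were called higher and 0 lower (4.14% and 5.16% of tested genes), and after subtraction 3 of 9 and 0 (8.19% and 6.85%). Without SCC 5, 2 of 9 were called higher and 1 (P4ha1) lower (14.5% and 10.9%). The median and the number of members tested both changed with the setting. The median ran from -0.07 without SCC 5 (9 tested) to 1.42 without SCC 4 (12 tested), and it was 2.12 with SCC 2 and SCC 5 alone (12 tested), 1.9 with no filter and 2.28 with a filter of 1 CPM in 5 libraries (13 tested in each).

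**Figure D3:**
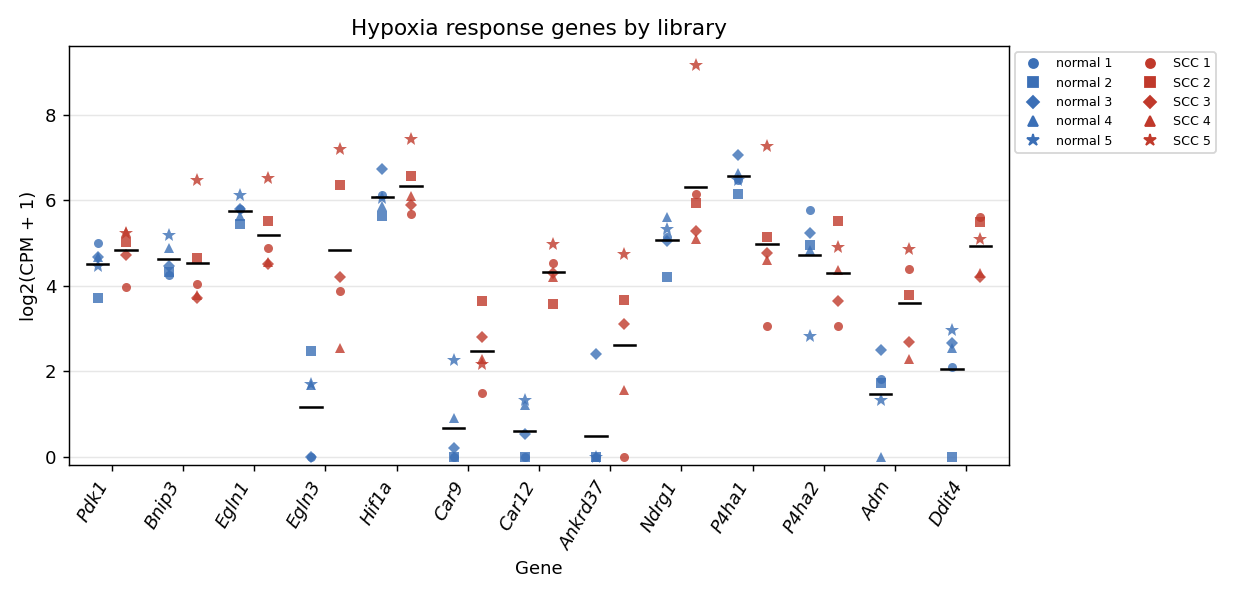
Levels of the hypoxia members in each library as log2 of CPM plus 1 (vertical axis) by gene (horizontal axis), with normal libraries in blue, SCC libraries in red, 1 symbol per library and a black bar at the group mean. For Car12 the SCC points correspond to 10.9 to 30.7 CPM and all normal points to 1.51 CPM or less.

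The oxygen-sensing part of the list comprises Hif1a, the oxygen-regulated alpha subunit, and 2 prolyl hydroxylases. Hif1a measured 68.9, 48.8, 105, 57 and 65.8 CPM in normal 1 to normal 5 and 50.3, 93.9, 58.4, 67.2 and 173 CPM in SCC 1 to SCC 5. The groups overlapped, with SCC 5 alone above the normal range. Hif1a transcript was not called (log2 fold change 0.36, SE 0.39, edgeR adjusted p = 0.569), and without SCC 5 its log2 fold change was -0.07. Egln1, the main hydroxylase in normal oxygen, ran from 42.7 to 68.9 CPM in normal and 21.8 to 90.3 CPM in SCC and was not called (log2 fold change -0.36, edgeR adjusted p = 0.623). Egln3 (chromosome 12, 54178981 to 54203860), a hydroxylase gene that is itself a target of hypoxia-inducible factor, measured 0, 4.57, 0, 2.19 and 2.27 CPM in normal 1 to normal 5 and 13.7, 80.9, 17.5, 4.87 and 147 CPM in SCC 1 to SCC 5. SCC 5 and SCC 2 were high, SCC 4 was only just above the top normal library, and 2 normal libraries held 0 counts. Egln3 was called higher (log2 fold change 5.15, SE 0.98, edgeR adjusted p = 0.000407), and it was called under all 14 alternatives in which it was tested. It did not pass the filter without SCC 2, without SCC 5 or after background subtraction.

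Car9 and Car12 code for membrane carbonic anhydrases that handle acid at the cell surface. Car9, a classic hypoxia marker, did not pass the filter: it measured 0, 0, 0.149, 0.877 and 3.78 CPM in normal 1 to normal 5 and 1.83, 11.5, 6.01, 3.9 and 3.51 CPM in SCC 1 to SCC 5. The SCC libraries overlapped normal 5, and background at the receptor rate would make up 46.9% of the SCC counts. With no filter on low counts, where 23.9% of all genes were called higher, its log2 fold change was 2.33 (edgeR adjusted p = 0.127). Car12 (chromosome 9, 66713686 to 66766845) measured 0, 0, 0.446, 1.32 and 1.51 CPM in normal 1 to normal 5 and 22, 10.9, 18.6, 17.5 and 30.7 CPM in SCC 1 to SCC 5. All SCC libraries were above all normal libraries, with SCC 2 the lowest and SCC 5 the highest of them. Car12 was called higher (log2 fold change 4.91, SE 0.95, edgeR adjusted p = 0.000466) and kept that call under all 17 alternatives. Background would make up 31.9% of its SCC counts.

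Ddit4 (chromosome 10, 59949669 to 59951834), a stress-induced inhibitor of mTOR signalling, measured 3.26, 0, 5.35, 4.82 and 6.81 CPM in normal 1 to normal 5 and 47.6, 44, 17.5, 18.5 and 32.9 CPM in SCC 1 to SCC 5. All SCC libraries were above all normal libraries, and here SCC 1 and SCC 2, not SCC 5, were the highest. It was called higher (log2 fold change 2.95, SE 0.70, edgeR adjusted p = 0.00312) and under all 17 alternatives. Ndrg1 (chromosome 15, 66929318 to 66969640), a stress and differentiation gene, measured 34.5, 17.5, 32.2, 47.3 and 39.3 CPM in normal 1 to normal 5 and 69.5, 60.6, 37.7, 33.1 and 567 CPM in SCC 1 to SCC 5. SCC 5 was far above every other library, SCC 1 and SCC 2 were moderately above the normal range, and the rest overlapped it. Ndrg1 was called higher (log2 fold change 2.17, SE 0.60, edgeR adjusted p = 0.0105), and without SCC 5 it was not (0.52, adjusted p = 0.398).

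Collagen prolyl hydroxylases are needed for stable collagen. P4ha1 measured 88.2, 69.4, 131, 98.6 and 87.8 CPM in normal 1 to normal 5 and 7.32, 34.1, 26.2, 23.4 and 154 CPM in SCC 1 to SCC 5. SCC 1 to SCC 4 lay below all normal libraries and SCC 5 above them, and P4ha1 was not called (log2 fold change -0.94, edgeR adjusted p = 0.215). Without SCC 5 it was called lower (-2.07, adjusted p = 0.000761), as it was with no filter (-1.24, adjusted p = 0.0272; 9.04% of all genes were lower there). The other collagen member P4ha2, at 6.05 to 53.3 CPM in normal and 7.32 to 45 CPM in SCC, was not called (log2 fold change -0.44, edgeR adjusted p = 0.647). Pdk1, which restrains pyruvate entry into mitochondria, and Bnip3, a mitophagy receptor, were not called either (log2 fold changes 0.35 and 0.33, edgeR adjusted p = 0.675 and 0.732). Pdk1 ran from 12.2 to 30.8 CPM in normal and 14.6 to 37 CPM in SCC. Bnip3 measured 18.1 to 35.6 CPM in normal and 15.6, 23.9, 12, 12.7 and 87.7 CPM in SCC 1 to SCC 5, with SCC 5 alone high. Without SCC 5 its log2 fold change was -0.62.

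Adm, the vasodilator adrenomedullin, and Ankrd37, a small ankyrin-repeat gene, did not pass the filter. Adm measured 2.54, 2.29, 4.61, 0 and 1.51 CPM in normal 1 to normal 5 and 20.1, 12.7, 5.46, 3.9 and 28.1 CPM in SCC 1 to SCC 5, and Ankrd37 0, 0, 4.31, 0 and 0 and 0, 11.7, 7.65, 1.95 and 25.9 CPM. For both, SCC 5 was the highest library, and for both some SCC libraries overlapped the normal range. With no filter their log2 fold changes were 2.27 and 2.79 (edgeR adjusted p = 0.0513 and 0.0339). Exons of Ankrd37 overlap Lrp2bp and Ufsp2 on the other strand.

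Levels in SCC 5 were unlike those of the other SCC libraries for many members. SCC 5 was the highest SCC library for 15 of 20 tested glycolytic members (75%) and 7 of 10 tested hypoxia members (70%), against 26.8% of all tested genes. The median log2 level of SCC 5 over the mean of the other SCC libraries was 1.46 for the glycolytic members, 1.52 for the hypoxia members and -0.08 for all tested genes. As a median over the glycolytic members, SCC 1 to SCC 5 differed from the normal mean by 0.58, 0.89, 0.52, 0.45 and 2.41 on the log2 scale, and as a median over the hypoxia members by -0.47, 0.67, 0.01, 0.02 and 1.61. In SCC 5, 16 of 20 glycolytic members were at least 1 log2 unit above the normal mean, and 9, 8, 6 and 6 were in SCC 1 to SCC 4. The share of all tested genes at least that far above was 30.7, 22.2, 31.9, 32.1 and 26% in SCC 1 to SCC 5, so the glycolytic counts in SCC 3 and SCC 4 were near the share of any gene. The hypoxia members counted 6 of 10 in SCC 5 and 4, 3, 3 and 3 in the others, and those in SCC 3 and SCC 4 were likewise near that share. SCC 5 also had the highest squamous marker sum (6246 CPM, against 863 to 1949 in the other SCC libraries), the highest proliferation marker sum (861, against 260.1 to 537), the highest fibroblast and macrophage marker sums of the SCC libraries (1236, against 298 to 657, and 1048, against 464 to 753) and the lowest receptor signal, and their part in the result was not tested. Genes called in all of the full comparison, the 2-library comparison, the subtracted counts and the comparison without SCC 5 were Pfkl and Gapdh among the glycolytic members and Car12 and Ddit4 among the hypoxia members. Under every alternative in which they were tested, 5 of the 15 called members kept their call: these 4 and Egln3.

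**Figure D4:**
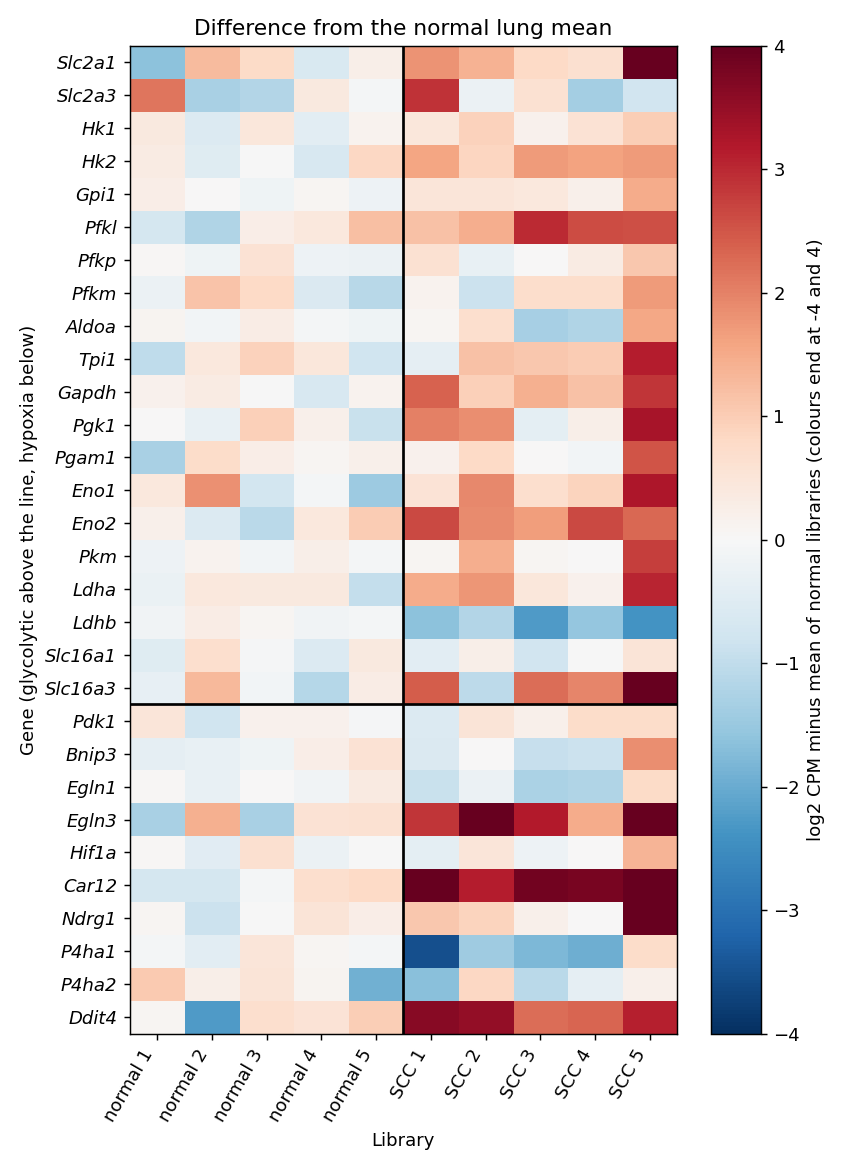
Difference of each library from the mean of the normal libraries (log2 scale, colour) for each tested member (rows) and each library (columns). The SCC 5 column is the most uniformly high, with 16 of 20 glycolytic members at least 1 log2 unit above the normal mean.

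The ratio of paired isoenzymes within a library does not depend on how libraries are scaled, and 10 pairs were compared with an exact two-sided permutation test over all relabelings, on log2 ratios of count plus 1. The Ldha to Ldhb log2 ratio was 0.02, 0.27, 0.46, 0.67 and -0.76 across normal 1 to normal 5, and across SCC 1 to SCC 5 it was 3.25, 3.09, 2.88, 1.83 and 5.63. Ldha and Ldhb counts were close in normal lung, Ldha exceeded Ldhb in every SCC library, and the groups did not overlap (difference 3.20, exact p = 0.00794, the smallest possible, adjusted p = 0.0397 over the pairs). The Egln3 to Egln1 log2 ratio averaged -5.50 ± 2.29 (SD, n = 5) in normal and -0.35 ± 1.19 (SD, n = 5) in SCC, again without overlap (difference 5.15, exact permutation p = 0.00794, adjusted p = 0.0397). Egln3 had 0 counts in normal 1 and normal 3, so their ratios (-7.25 and -8.52) reflect only Egln1, and so library depth, and the 1 added. In SCC 4 Egln3 had 5 counts, fewer than background at the receptor rate would give. This ratio uses the same few Egln3 counts as the call above, 14 over all normal libraries, so it is not separate support. Hk2 to Hk1 differed by 0.88, Pfkp to Pfkl by -1.83 and Car9 to Car12 by -1.81, and none passed the adjusted threshold (exact permutation p = 0.0476, 0.0317 and 0.0397, adjusted p = 0.0952 each). Car9 and Car12 each had only 8 counts over all normal libraries and 0 in normal 1 and normal 2. Their normal ratios are therefore set largely by the 1 added to each count. The ratios of Slc16a3 to Slc16a1, Slc2a1 to Slc2a3, Aldoa to Aldoc, Eno1 to Eno2 and P4ha2 to P4ha1 overlapped between the groups, with exact permutation p of 0.0714, 0.389, 0.254, 0.405 and 0.143 and adjusted p of 0.119 to 0.405. With 1 library left out, the Ldha to Ldhb and Egln3 to Egln1 differences ran from 2.63 to 3.58 and from 4.40 to 5.77. Their groups stayed apart, and with the 126 relabelings then possible each had an exact permutation p of 0.00794 or 0.0159. A pair with the lowest of these p-values has an adjusted p of 0.0794 over 10 pairs unless other pairs are nearly as extreme. The count past the adjusted threshold was 5 without SCC 2 and 0 without any other library (2 to 4 had an unadjusted exact p under 0.05), and a count of 0 in so small a design says nothing about stability.

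**Figure D5:**
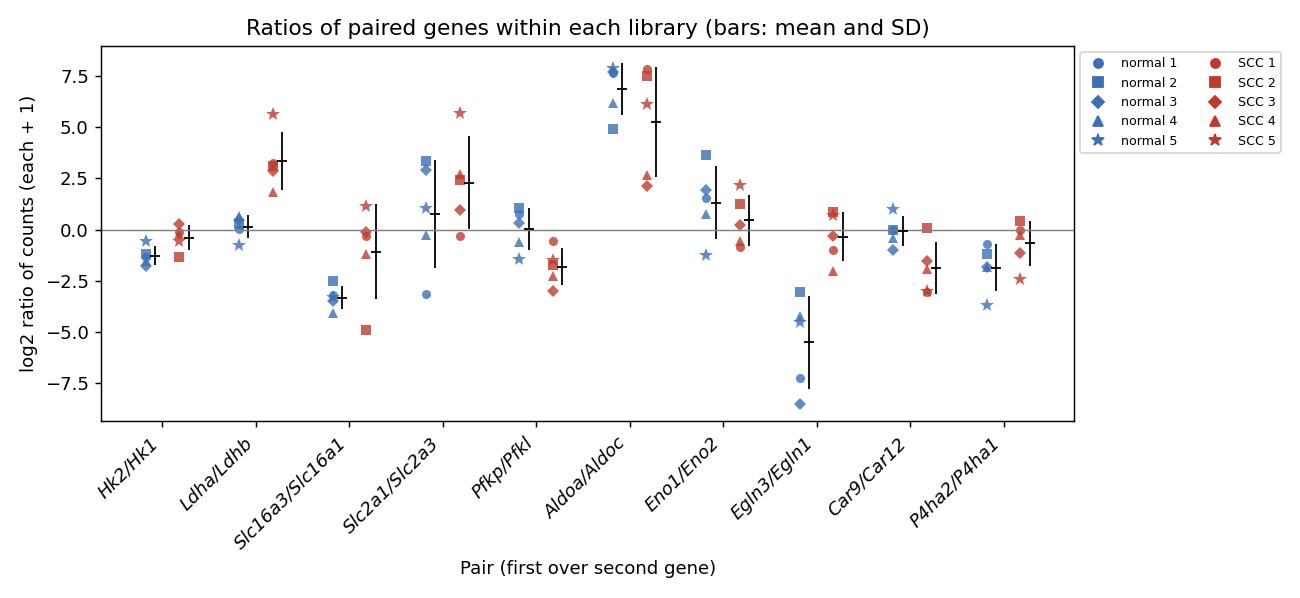
Log2 ratio of the counts of 2 related genes in each library, each count plus 1, with normal libraries in blue, SCC libraries in red and black bars at the mean and SD of each group. For Ldha over Ldhb the SCC points run from 1.83 to 5.63 and the normal points from -0.76 to 0.67.

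Other genes of these pathways were taken from fixed lists. Of 112 listed genes 110 had a row and 96 passed the filter; 9 were called higher and 10 lower, with a median log2 fold change of -0.09, where 12.5% and 8.68% of all tested genes were called. Among 19 other glycolysis genes 1 was called higher, the D-lactate dehydrogenase Ldhd (2.78, edgeR adjusted p = 0.0373), and 0 lower (4 higher and 0 lower at an unadjusted p under 0.05; DESeq2 called 3 and 0). Ldhd was no longer called with normal 1, normal 2, normal 3, normal 5, SCC 2, SCC 3 or SCC 4 left out (edgeR adjusted p 0.0668 to 0.149) or with SCC 2 and SCC 5 alone. After subtraction Ldhd did not pass the filter. The pyruvate dehydrogenase list had 0 of 13 higher (0 also at an unadjusted p under 0.05 and in DESeq2) and 1 lower, Pdk4, a kinase that inhibits the complex (-1.34, edgeR adjusted p = 0.0202). Pdk4 was not called with SCC 2 and SCC 5 alone or after subtraction (edgeR adjusted p = 0.0609 and 0.0853). The pentose phosphate list had 1 of 8 in each direction: G6pdx, its entry enzyme, was higher (1.80, edgeR adjusted p = 0.0084) and H6pd, the enzyme of the endoplasmic reticulum, was lower (-1.74, edgeR adjusted p = 0.000767).

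Within the hypoxia sensing list 2 of 12 were called higher and 1 lower, near the 12.5% and 8.68% of all tested genes. Epas1, the alpha subunit abundant in lung endothelium, measured 10739, 8266, 9153, 10860.3 and 10318 CPM in normal 1 to normal 5 and 1440.0, 3254, 728, 734 and 513 CPM in SCC 1 to SCC 5, with no overlap. Its log2 fold change was -2.89 (SE 0.56, edgeR adjusted p = 0.000483), beside endothelial markers that summed to 4084 to 5425 CPM in normal and 326 to 510.5 CPM in SCC. Their part in the result was not tested. Hif3a, an alpha subunit that can oppose the others, and Arnt2, a partner subunit, were called higher (log2 fold changes 2.38 and 4.32, edgeR adjusted p = 0.00756 and 0.00042). Both missed the threshold on SCC 2 and SCC 5 alone (edgeR adjusted p of 0.331 for Hif3a, 0.113 for Arnt2). Background would make up 28.9% of the SCC counts of Hif3a and 43.8% of those of Arnt2. After subtraction Hif3a was still called (2.42, edgeR adjusted p = 0.0475) and Arnt2 did not pass the filter. Of 44 other known hypoxia targets 5 were higher and 7 lower, again beside 12.5% and 8.68% of all tested genes. Vegfa, the vascular growth factor also made by alveolar epithelium, measured 1016, 1278, 1226, 921 and 1090.3 CPM in normal 1 to normal 5 and 82.3, 189, 51.3, 93.5 and 342 CPM in SCC 1 to SCC 5, with every SCC library below every normal one (log2 fold change -2.86, SE 0.48, edgeR adjusted p = 0.000115). Bhlhe40, a transcriptional repressor, and Ak4, a mitochondrial adenylate kinase, were called higher (log2 fold changes 2.11 and 3.34, edgeR adjusted p = 0.0017 and 0.00623). Ak4 was not called on SCC 2 and SCC 5 alone or after subtraction (edgeR adjusted p = 0.0888 and 0.0543).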

How the data were processed

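The authors deposited raw read counts, as whole numbers by gene symbol, for the 10 libraries. The submitters' processing notes name TopHat2 2.0.1, cutadapt 1.9.1, DESeq2 and HTSeq 0.6.1 with build mm10, per the labels. Which annotation and strand setting were used, and how multi-mapping reads were handled, was not given in the sources used here. The fit used edgeR 4.0.16 in R 4.3.3: filterByExpr by group, TMM factors, robust quasi-likelihood test without covariates, Benjamini-Hochberg adjustment over 13203 genes. The SE is the size of the log2 fold change divided by the square root of F. CPM is scaled by the TMM-adjusted total over tested genes. Transcript lengths and gene positions were read from GENCODE M21 (GRCm38), which matched 23376 symbols directly and 646 through older symbols and left 399 unmatched. The receptor rate is counts over coding length in kb, capped at the 98th percentile of a library's receptor genes, and the background is that rate times transcript length. The test was tested on simulated data with known changes. Alternatives were each library left out, upper-quartile factors, size factors of DESeq2 1.42.0 and its Wald test, no filter, a filter of 1 CPM in 5 libraries, SCC 2 and SCC 5 alone, background subtraction and, for ratios, 0.5 in place of 1 added. All members are reported, with every library for those called and for Slc2a1, Gapdh, Hif1a and Car9, and the 3 called genes of smallest p in each further list. Members and lists were chosen with earlier results of these data known. Counts of low genes carry counting error, and the labels mention no molecular identifiers.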

Additional observations from a re-analysis of the deposited data

Results flagged for a closer look

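In 60 groups of 5 libraries (each tested member in each group), 4 held a library far from the others by Dixon's test, which chance gives in about 1 of 20 groups. Hk2 in SCC 2 was at 36.4 CPM, and the other SCC libraries at 60.4 to 66.1 CPM. Gpi1 in SCC 5 was at 247 CPM, against 101 to 124 CPM in the others. Ndrg1 in SCC 5 was at 567 CPM, against 33.1 to 69.5 CPM. Ddit4 in normal 2 had 0 CPM, where the other normal libraries held 3.26 to 6.81 CPM.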

How the results depend on the processing

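No paired analysis was possible because the labels give the 2 groups no shared replicate numbers. With 1 library left out, glycolytic members called higher numbered 4 to 9 and called lower 1 to 1, hypoxia members 2 to 5 and 0 to 1, other pathway genes 7 to 11 and 9 to 13, and ratios past the adjusted threshold 0 to 5 (with the 126 relabelings of 9 libraries, 0 says nothing about stability). With no filter on low counts, 1 hypoxia member was called lower, and 14 and 16 other pathway genes were called higher and lower. With SCC 2 and SCC 5 alone, 0 glycolytic members were called lower and 5 other pathway genes in each direction. After subtraction these were 4 and 5, and 0 ratios passed (4 had an unadjusted exact p under 0.05). Log2 fold changes that turned, all of uncalled members, were Slc16a1 with upper-quartile factors (0.078), Pdk1 with no filter (-0.023) and, with SCC 2 and SCC 5 alone, Slc2a3 (-1.17), Slc16a1 (0.29), Egln1 (0.30), P4ha2 (0.23) and the Eno1 to Eno2 ratio (0.39). With 1 library left out, Slc2a3 ran from -0.95 to 1.36, Pfkm from -0.0033 to 0.69, Aldoa from -0.24 to 0.52, Pdk1 from -0.0067 to 0.47, Bnip3 from -0.62 to 0.48 and Hif1a from -0.066 to 0.51. The cause was not tested. Upper-quartile factors moved the median of all genes from 0.07 to 0.27. Low counts limit Car9, Aldoc, Adm and Ankrd37.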

Other observations

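Of the 44 other known hypoxia targets tested, 18 (40.9%) had their highest SCC level in SCC 5 and 11 their lowest there, where 26.8% of all tested genes had SCC 5 highest. Chosen after their values were seen, Ero1l, an oxidase of protein folding, measured 57, 41.9, 63.6, 57.4 and 40.1 CPM in normal 1 to normal 5 and 44.8, 136, 31.1, 50.6 and 360.4 CPM in SCC 1 to SCC 5, and Fam162a, a mitochondrial protein gene, measured 3.99, 4.57, 29.1, 10.5 and 0.757 and 0, 12.5, 14.2, 8.77 and 158 CPM. For both genes SCC 5 was the highest library of all 10, which was known when they were chosen. Neither was called (log2 fold changes 1.26 and 1.93, edgeR adjusted p = 0.0764 and 0.137). Without SCC 5 their log2 fold changes were 0.32 and -0.19. With SCC 2 and SCC 5 alone Ero1l was called higher (2.21, edgeR adjusted p = 0.000502) and Fam162a was not (2.96, adjusted p = 0.0653). Bnip3l, a mitophagy receptor, measured 198, 117, 180.4, 181 and 179 CPM in normal and 42.1, 138, 50.8, 44.8 and 102 CPM in SCC, with overlap (log2 fold change -1.17, edgeR adjusted p = 0.0305). It missed the threshold on SCC 2 and SCC 5 alone (log2 fold change -0.54, edgeR adjusted p = 0.417) and after subtraction (edgeR adjusted p = 0.0743). Hilpda, a lipid droplet gene, measured 33, 24.4, 23.8, 38.6 and 12.9 CPM in normal and 5.49, 10.4, 6.55, 0.974 and 2.19 CPM in SCC, with every SCC library below every normal one (log2 fold change -2.31, edgeR adjusted p = 0.0154). It likewise missed the threshold on SCC 2 and SCC 5 alone and after subtraction (edgeR adjusted p = 0.141 and 0.0556).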
